A study of Homo sapiens with 8 samples.

Results

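The α- and β-tubulin isotypes are the 10 genes TUBA1A, TUBA1B, TUBA1C, TUBA4A, TUBB, TUBB2A, TUBB2B, TUBB3, TUBB4B and TUBB6, chosen by symbol, and all 10 have a value among the 38148 genes of the table. They were measured by poly(A)-selected mRNA-seq in HT29, an established human colorectal cancer cell line. Cells were grown without drug or exposed for 24 h to selumetinib at 1 μM, an inhibitor of MEK, the kinase that activates ERK1/2. Glyoxal-fixed cells of both kinds were labelled for cyclin B1 (CCNB1), a protein that accumulates in G2 and is destroyed in mitosis, and flow sorted before RNA extraction. Each treatment gave a CCNB1-negative and a CCNB1-positive fraction, hence 4 groups, and each group has 2 libraries. The groups are fractions of a cycling line gated on 1 protein, not pure cell cycle phases, and the labels do not say whether the 2 libraries of a group came from separate cultures, so p-values measure only the spread between these libraries. The sample titles and the short descriptions clash in both treatment and fraction for every library: where one says untreated and positive, the other says treated and negative. The groups follow the descriptions, which also head the columns of the table. Were the titles right, the response given for each fraction would belong to the other fraction with the sign turned, and likewise for the fraction differences of each treatment, whereas the difference between the 2 responses would not move.

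α- and β-tubulin form the heterodimer from which microtubules are built, and each is encoded by a family of nearly identical genes called isotypes. Microtubules make the interphase network and, rebuilt with faster dynamics, the mitotic spindle. In epithelial cells a few isotypes supply most of the tubulin, while others are best known from neurons, muscle or cilia. Tubulin folding needs the chaperonin CCT, prefoldin and a set of cofactors, and cells hold tubulin mRNA in check by autoregulation, in which surplus dimers trigger decay of tubulin mRNA that is being translated.

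The libraries held between 12696860 and 23916160 reads on genes, the fewest in selumetinib-treated CCNB1-negative cells. MALAT1 took 0.303% to 0.386% of these reads in untreated and 2.01% to 4.42% in treated libraries, and mitochondrial genes took 4.44% to 7.80% and 11.9% to 14.8%. CCNB1 mRNA itself, as a deposited log2 value, was 11.66 and 12.01 in untreated CCNB1-negative, 13.79 and 14.05 in untreated CCNB1-positive, 7.92 and 7.22 in treated CCNB1-negative and 12.76 and 12.53 in treated CCNB1-positive cells, lower in the negative fraction of both treatments. The 8 epithelial markers summed to between 4580 and 11000 RPM (reads scaled to the library's total on genes). KRT8 and KRT18 held most of these reads, whereas CDX2 had 40 to 136 and CDH17 23 to 77 reads per library. The other lists summed to at most 0.786 RPM for the 2 leukocyte markers, 5.61 RPM for the 3 fibroblast markers and 1.13 RPM for the endothelial marker PECAM1. All 6 genes of a MEK output list (DUSP6, SPRY2, SPRY4, ETV4, ETV5 and PHLDA1) were lower in treated than in untreated cells of both fractions (limma, adjusted p under 0.05). Under the sample titles CCNB1 mRNA would instead be higher in the negative fraction of both treatments. The 6 MEK output genes would then be higher in treated cells of both fractions. Less RNA of a gene per cell and fewer cells that hold it cannot be told apart in such sorted bulk samples.

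The 4 α genes lie on chromosomes 12 (TUBA1A at 49184795 to 49189080, TUBA1B at 49127782 to 49131397 and TUBA1C at 49188736 to 49274603) and 2 (TUBA4A at 219249710 to 219278170) of GRCh38. The 6 β genes lie on chromosomes 6 (TUBB at 30720352 to 30725426, TUBB2A at 3153666 to 3157544 and TUBB2B at 3224277 to 3231730), 9 (TUBB4B at 137241287 to 137243707), 16 (TUBB3 at 89921392 to 89938761) and 18 (TUBB6 at 12307669 to 12344320). Each canonical transcript has 4 exons. Coding sequences were 95.9% to 97.2% identical between TUBA1A, TUBA1B and TUBA1C, 98.2% between TUBB2A and TUBB2B, and 81.0% to 87.8% between the other β pairs. This closeness limits how surely reads can be given to 1 gene. Windows of 50 bases were taken inside single exons of the canonical transcript, so those across splice junctions were left out. Of these windows 34.9% were found once in the genome for TUBA1B, 49.3% for TUBA1A and 73.0% for TUBA1C. The share was 31.3% for TUBB2A and 41.5% for TUBB2B, against 77.9% for TUBB and 87.6% to 98.8% for TUBA4A, TUBB3, TUBB4B and TUBB6. How reads that map to several genes were counted is not given in the sources used here, so the division of reads among TUBA1A, TUBA1B and TUBA1C, and between TUBB2A and TUBB2B, is uncertain. Every gene but TUBB2A also overlaps another annotated gene, and without a stated strand setting those reads may be shared.

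The promoters of the 4 isotypes with most reads per kilobase, TUBA1B, TUBA1C, TUBB and TUBB4B, and of TUBB3, the tested isotype called higher after treatment, are shown as the 250 bases before the RefSeq start (GRCh38.p14, written 5′ to 3′ on the strand of the gene). Capitals mark the letters CCAAT, bound by NF-Y in many cell cycle promoters, or their reverse ATTGG, and TTTGAA, the core of the cell cycle genes homology region (CHR), or its reverse TTCAAA.
TUBA1B promoter (chr12:49131396-49131645, minus strand): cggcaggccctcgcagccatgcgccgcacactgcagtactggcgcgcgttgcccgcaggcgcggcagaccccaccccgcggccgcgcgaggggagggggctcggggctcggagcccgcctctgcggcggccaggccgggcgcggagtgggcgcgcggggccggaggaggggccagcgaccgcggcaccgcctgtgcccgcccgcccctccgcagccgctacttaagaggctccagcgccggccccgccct
TUBA1C promoter (chr12:49264832-49265081, plus strand): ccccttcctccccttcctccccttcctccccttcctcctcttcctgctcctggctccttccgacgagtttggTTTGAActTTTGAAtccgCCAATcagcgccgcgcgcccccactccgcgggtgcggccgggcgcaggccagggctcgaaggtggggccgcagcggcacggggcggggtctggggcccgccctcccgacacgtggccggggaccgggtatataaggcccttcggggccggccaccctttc
TUBB promoter (chr6:30720102-30720351, plus strand): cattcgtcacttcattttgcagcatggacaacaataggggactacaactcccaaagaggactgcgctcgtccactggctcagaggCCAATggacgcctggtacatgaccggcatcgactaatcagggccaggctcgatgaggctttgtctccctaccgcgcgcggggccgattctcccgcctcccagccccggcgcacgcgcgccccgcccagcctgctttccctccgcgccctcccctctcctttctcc
TUBB4B promoter (chr9:137241037-137241286, plus strand): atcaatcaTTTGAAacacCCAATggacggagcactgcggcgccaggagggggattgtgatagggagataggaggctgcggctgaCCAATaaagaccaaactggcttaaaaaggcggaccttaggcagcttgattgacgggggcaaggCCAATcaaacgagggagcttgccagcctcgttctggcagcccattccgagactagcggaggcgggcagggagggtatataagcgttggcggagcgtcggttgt
TUBB3 promoter (chr16:89923092-89923341, plus strand): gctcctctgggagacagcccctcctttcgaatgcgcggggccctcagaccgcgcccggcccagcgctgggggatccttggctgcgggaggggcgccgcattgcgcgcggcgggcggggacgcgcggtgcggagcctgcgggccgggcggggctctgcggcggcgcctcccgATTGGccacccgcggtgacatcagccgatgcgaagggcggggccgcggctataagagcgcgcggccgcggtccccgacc

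RefSeq promoters matched 10 of the 10 isotypes, and were searched on both strands from 250 bases before to 50 bases after the start. None of the motifs' letters contains those of another. CCAAT was found in 7 of 10 (TUBA1A, TUBA1C, TUBB, TUBB2B, TUBB3, TUBB4B and TUBB6) and in 34.6% of all 35116 RefSeq promoters. TTTGAA was found in 2 (TUBA1C and TUBB4B) and in 15.2% of all promoters. In TUBB4B 3 CCAAT matches began 232, 166 and 103 bases before the start and a TTTGAA match at 242 bases. In TUBA1C 1 CCAAT match began at 160 bases and 2 TTTGAA matches at 178 and 170 bases. The GC box GGGCGG, a site of SP1-type factors, was found in 8 of 10 and in 45% of all promoters, and TATAAA in 1 (TUBB2A) and in 11.5%. The ETS core CCGGAA was found in 0 of 10 and in 17.2% of all promoters. A match is a stretch of letters, not a measured binding site.

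Levels were compared between genes as RPKM, RPM per kilobase of merged exon. RPKM rests on reads on genes, whereas log2 differences and folds use the deposited scale, normalized to the total read count. A ratio of printed RPKM can therefore differ from the fold given beside it. TUBB4B, a broadly expressed β-tubulin also known from cilia, had the highest RPKM in all 4 groups, and TUBA1B, the main α-tubulin of many dividing cells, and TUBB, the common β-tubulin, came next. TUBA1C and then TUBA4A followed in each group, with group means of 81.2 and 43.8 RPKM in untreated CCNB1-negative cells. TUBB2A, TUBA1A and TUBB3, whose best known role is in neurons, lay between 0.468 and 4.16 RPKM in single libraries, and TUBB2B and TUBB6 at or below 0.275 RPKM. Neighbours in this order whose libraries overlapped were TUBA1B and TUBB in untreated negative and treated positive cells, TUBB2A and TUBA1A in untreated CCNB1-positive cells, TUBB3 and TUBA1A in treated CCNB1-positive cells, and TUBB6 and TUBB2B in untreated CCNB1-negative cells. The other neighbours did not overlap between their 2 libraries each. The order rests on the length used: with the canonical transcript in place of all merged exons TUBA1B averaged 521 and TUBB4B 497 RPKM in untreated CCNB1-negative cells, while TUBB4B stayed highest in the other 3 groups. The choice weighs most on TUBB3, whose merged exons span 7421 bases and whose canonical transcript spans 1706.

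**Figure D1:**
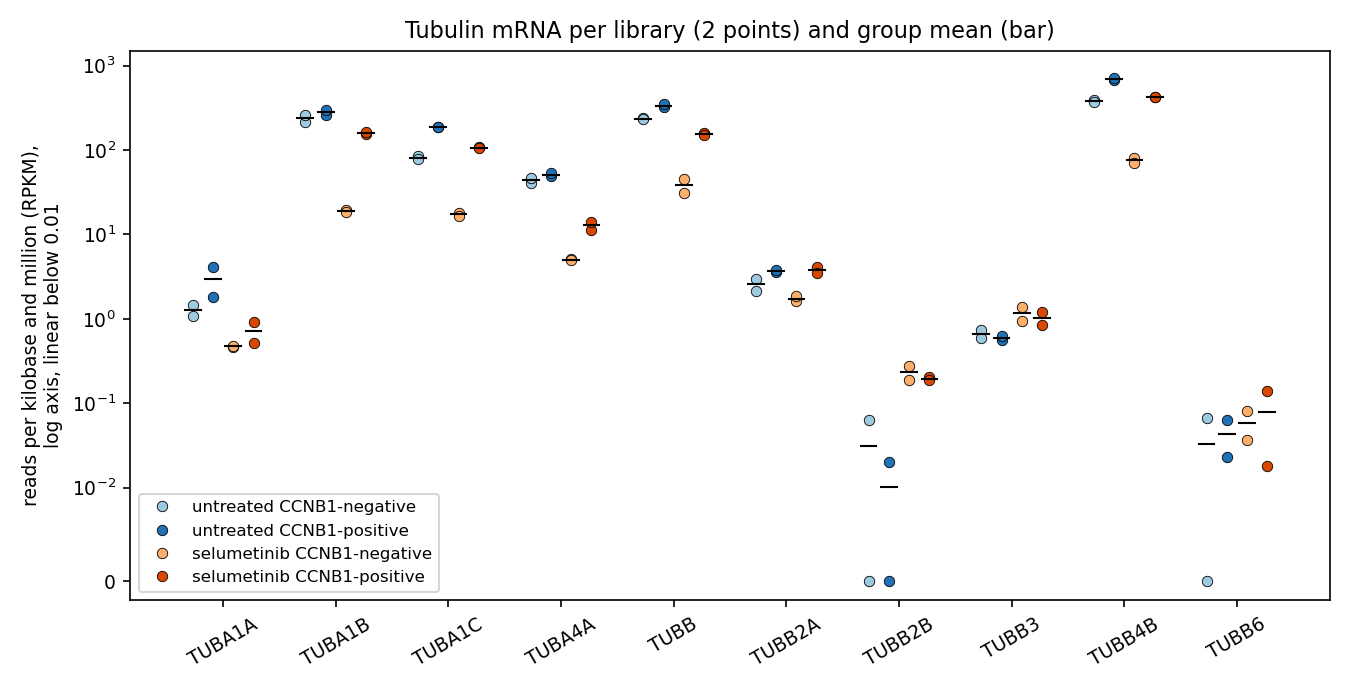
RPKM of each isotype on a log axis (linear below 0.01), with 1 point per library and a bar at the mean of the 2 libraries of each group. The 5 isotypes with most reads, TUBA1B, TUBA1C, TUBA4A, TUBB and TUBB4B, are lowest in selumetinib-treated CCNB1-negative cells, while both TUBB3 and TUBB2B points of the treated groups lie above those of the untreated groups.

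Together the 10 isotypes took 0.310% and 0.315% of the reads on genes in untreated CCNB1-negative cells and 0.468% and 0.4997% in untreated CCNB1-positive cells. In treated cells they took 0.0538% and 0.0441% in the CCNB1-negative and 0.260% and 0.261% in the CCNB1-positive fraction. The treated negative libraries were therefore the lowest of the 8. Summed α RPKM stood at 0.539 and 0.634 of summed β RPKM in untreated CCNB1-negative libraries, 0.495 and 0.508 in untreated CCNB1-positive, 0.329 and 0.387 in treated CCNB1-negative and 0.465 and 0.492 in treated CCNB1-positive libraries.

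The first question was how MEK inhibition moved tubulin mRNA in CCNB1-negative cells. Of the 10 isotypes 8 had a mean of at least 1 RPM over all libraries and were tested. In CCNB1-negative cells 7 of the 8 fell, by up to 13.8-fold for TUBA1B, and TUBB3 rose. Over all 14219 genes tested 35.8% fell and 38.2% rose (limma on the log2 values, Benjamini-Hochberg adjusted p under 0.05). The median log2 difference was -2.43 over the 8 isotypes and 0.05 over all genes.

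TUBA1B stood at 216 and 258 RPKM in untreated and at 19.3 and 18.3 RPKM in treated CCNB1-negative libraries. Its log2 difference was -3.79 (standard error, SE, 0.16, adjusted p = 9.33e-10), lower than that of all but 0.324% of the genes tested. TUBA4A, an α-tubulin whose gene does not encode the usual terminal tyrosine, stood at 40.9 and 46.8 RPKM untreated and 5.07 and 5.03 RPKM treated. It was 9.54-fold lower (log2 difference -3.25, SE 0.15, adjusted p = 1.64e-09), and its treated libraries lay far below both untreated ones. TUBB fell from 241 and 230.5 RPKM to 45.9 and 30.8 RPKM. On the deposited scale it was 6.89-fold lower (log2 difference -2.79, SE 0.20, adjusted p = 3.96e-08). TUBB4B fell from 392 and 371 RPKM to 81.2 and 70.1 RPKM, and TUBA1C from 84.4 and 78.0 RPKM to 18.0 and 16.5 RPKM. On the deposited scale these were 5.57- and 5.19-fold differences, with log2 values of -2.48 (SE 0.17, adjusted p = 2.53e-08) and -2.38 (SE 0.15, adjusted p = 1.29e-08).

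TUBA1A, the α-tubulin of developing neurons, is a low gene here, with 91 and 108 reads in untreated and 25 and 23 reads in treated CCNB1-negative libraries. Its log2 difference was -1.57 (SE 0.39, adjusted p = 0.00237), and the 2 groups did not overlap. TUBB2A had 135 and 167 reads untreated and 66 and 68 reads treated, or 2.11 and 3.01 against 1.62 and 1.84 RPKM. Its log2 difference of -0.68 (SE 0.23, adjusted p = 0.0154) was the smallest fall among those called. The call was lost without untreated CCNB1-negative replicate 2 (log2 difference -0.42, adjusted p = 0.193) and without treated CCNB1-negative replicate 1 (-0.61, adjusted p = 0.0620), with scaling to nuclear genes other than MALAT1 (-0.51, adjusted p = 0.0589) and with limma-voom on recovered reads (-0.53, adjusted p = 0.0838).

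In CCNB1-positive cells 6 of the 8 tested isotypes fell with selumetinib, TUBB3 rose and TUBB2A did not pass the test. Over all genes 27.3% fell and 38% rose. The median log2 difference was -0.92 over the 8 isotypes and 0.17 over all genes. TUBA4A fell from 48.8 and 53.7 RPKM to 11.4 and 14.1 RPKM, with a log2 difference of -2.12 (SE 0.15, adjusted p = 2.2e-07). TUBA1A went from 166 and 350 reads to 71 and 28 reads (log2 difference -2.09, SE 0.39, adjusted p = 0.000375). Without untreated CCNB1-positive replicate 1 or 2 the log2 difference was -2.69 or -1.48, still called in each case.

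TUBB fell from 323 and 349 RPKM to 158 and 151 RPKM in CCNB1-positive cells (2.33-fold, log2 difference -1.22, SE 0.20, adjusted p = 0.000116). TUBA1B went from 259.8 and 298 RPKM to 153 and 164 RPKM, TUBA1C from 189 and 186 RPKM to 107 and 106 RPKM, and TUBB4B from 682 and 712 RPKM to 423 and 422 RPKM. These 3 differed by 1.77- to 1.89-fold, with log2 differences of -0.92 (TUBA1B, SE 0.16, adjusted p = 0.000277), -0.92 (TUBA1C, SE 0.15, adjusted p = 0.00011) and -0.83 (TUBB4B, SE 0.17, adjusted p = 0.00067). In each of the 3 both treated libraries lay below both untreated ones, but the share of all genes separated in this way was not counted. With quantile normalization, which moved the median of all genes by -0.24 in this comparison, the 3 log2 differences were -0.28, -0.30 and -0.22 and none was called (adjusted p = 0.101, 0.0989 and 0.25). TUBB2A stood at 3.61 and 3.75 RPKM untreated and 4.12 and 3.49 RPKM treated, so the groups overlapped. On the deposited scale its log2 difference was -0.06 with a 95% interval from -0.56 to 0.43 (adjusted p = 0.823).

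**Figure D2:**
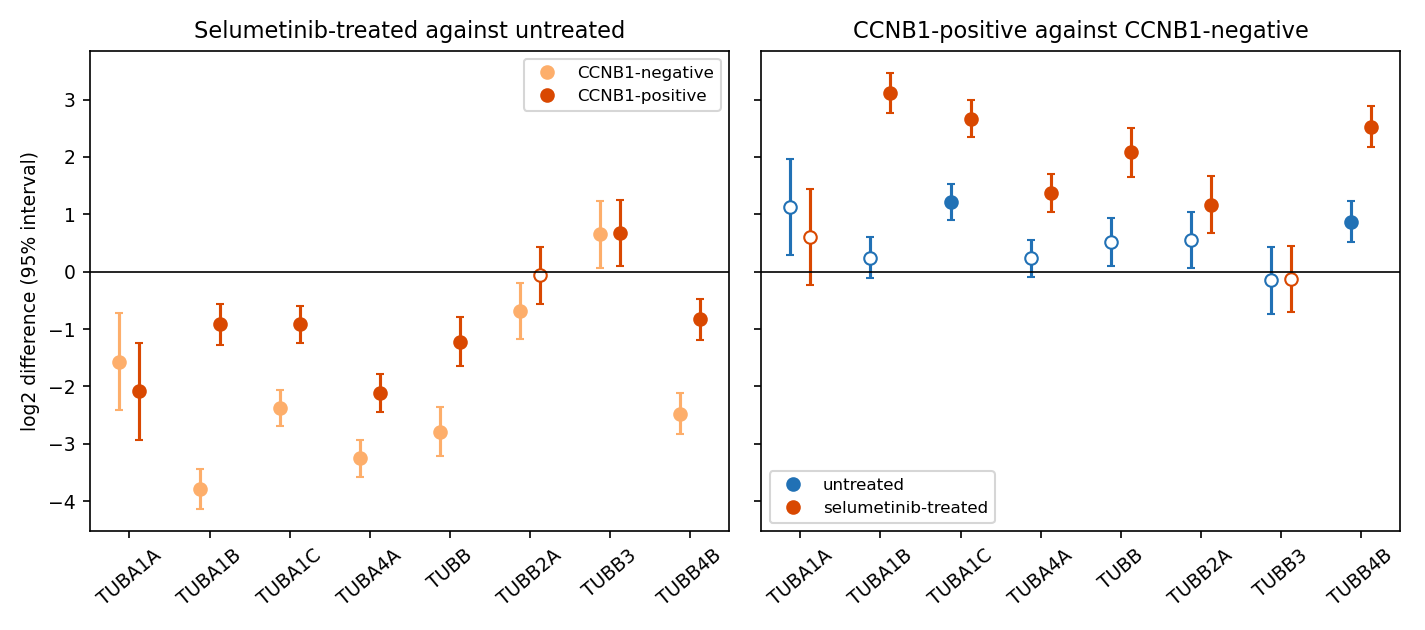
Log2 differences of the 8 tested isotypes with 95% intervals from limma; filled points passed an adjusted p under 0.05 and open points did not. On the left, treated against untreated cells fall from -3.79 to -0.68 for the 7 isotypes lower in CCNB1-negative cells and stay closer to 0 in CCNB1-positive cells except for TUBA1A and TUBB3; on the right, the fractions lie further apart in treated than in untreated cells for all but TUBA1A and TUBB3.

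TUBB3, class III β-tubulin and a marker of neurons that some carcinomas also express, was the only tested isotype called higher after treatment. It had 119 and 85 reads in untreated and 142 and 90 reads in treated CCNB1-negative libraries, that is 0.730 and 0.599 against 1.37 and 0.955 RPKM. In CCNB1-positive cells it had 100 and 102 reads untreated and 180 and 89 reads treated, or 0.563 and 0.624 against 1.21 and 0.850 RPKM. In RPKM both treated libraries of each fraction lay above both untreated ones. The log2 differences were 0.65 (SE 0.27, adjusted p = 0.0412) and 0.67 (SE 0.27, adjusted p = 0.0403) in the negative and positive fraction, 0.60 and 0.51 above the median of all genes.

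Both TUBB3 calls were lost when some single libraries were left out, although in some of these fits the log2 difference was larger. In CCNB1-negative cells the call was lost without untreated replicate 1 (log2 difference 0.78, adjusted p = 0.0504), untreated replicate 2 (0.52, adjusted p = 0.19) or treated replicate 1 (0.38, adjusted p = 0.28). In CCNB1-positive cells it was lost without untreated replicate 1 (0.59, adjusted p = 0.136), untreated replicate 2 (0.75, adjusted p = 0.0717) or treated replicate 1 (0.41, adjusted p = 0.308). With no filter on low values, which widens the adjustment to all genes of the table, the adjusted p was 0.0516 and 0.0527. With quantile normalization the log2 differences were 0.04 and -0.19. TUBB3 also overlaps AC092143.1, another gene annotated on the same strand. The overlap covers 14701 bases, from the start of the TUBB3 interval at 89921392 to 89936092. The rest of TUBB3, up to 89938761, lies outside it. AC092143.1 had 112 to 159 reads in untreated and 214 to 386 reads in treated libraries, and its part in the TUBB3 values was not tested. Of 4 neuronal markers, SYP (synaptophysin) and MAP2 were higher in treated cells of both fractions, with log2 differences of 2.09 and 1.64 in CCNB1-negative and 2.24 and 2.85 in CCNB1-positive cells. The neuronal list summed to 1.54 to 2.77 RPM in untreated and 9.57 to 12.4 RPM in treated libraries, while DCX and ELAVL3 had 0 to 3 reads in every library. The part of these genes in the TUBB3 result was not tested.

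TUBB2B, a neuronal β-tubulin, had 0 and 5 reads in untreated CCNB1-negative, 2 and 0 in untreated CCNB1-positive, 16 and 10 in treated CCNB1-negative and 17 and 11 in treated CCNB1-positive libraries. Its mean over all libraries lay under 1 RPM and it was left out of the test. Without that filter its adjusted p was 0.0297 in the negative and 0.0121 in the positive fraction, although 53.0% of its 50-base windows also occur in another isotype. TUBB6, class V β-tubulin, had between 0 and 11 reads in each library, and no difference was detectable at this depth.

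The second question was whether the fractions differed within a treatment, as the sort separates cells by a G2 protein. In untreated cells 2 of the 8 tested isotypes, TUBA1C and TUBB4B, were higher in CCNB1-positive cells, 0 were lower and 6 did not pass. Over all genes 1.36% were higher and 1.51% lower. The main fit, which gave these counts, did not pair fractions with the same replicate number. TUBA1C was 2.32-fold higher (log2 difference 1.21, SE 0.15, adjusted p = 0.000204), with 84.4 and 78.0 RPKM in the negative and 189 and 186 RPKM in the positive libraries. TUBB4B was 1.83-fold higher (log2 difference 0.88, SE 0.17, adjusted p = 0.00876). The TUBB4B call was lost without untreated CCNB1-negative replicate 2 (0.84, adjusted p = 0.0702) or untreated CCNB1-positive replicate 2 (0.84, adjusted p = 0.118). TUBA1C and TUBB4B are the 2 isotypes with TTTGAA in the promoter, letters found in 15.2% of all promoters. The match was noticed after both results were known, and its part in these differences was not tested.

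TUBA1B, although the α isotype with most reads per kilobase, had a log2 difference of 0.24 between untreated fractions, with a 95% interval from -0.11 to 0.60 (adjusted p = 0.608). TUBA4A had 0.23 (interval -0.10 to 0.56, adjusted p = 0.591). TUBB stood at 0.52 (interval 0.09 to 0.94, adjusted p = 0.237), TUBB2A at 0.55 (interval 0.06 to 1.04, adjusted p = 0.294) and TUBB3 at -0.15 (interval -0.73 to 0.42, adjusted p = 0.892). TUBA1A stood at 1.12 (interval 0.28 to 1.96, adjusted p = 0.182), and without untreated CCNB1-positive replicate 1 it was 1.73 and passed (adjusted p = 0.0246), while without untreated CCNB1-positive replicate 2 it was 0.52. When fractions of 1 treatment with the same replicate number were taken as a block, TUBA1A and TUBB also passed (adjusted p = 0.0102 and 0.0105). That made 4 of the 8 isotypes higher. Over all 14219 genes that block called 675 higher and 1248 lower, against 194 and 214 without it. The G2/M markers moved with the sort: all 6 were higher in untreated CCNB1-positive cells, and they summed to 668 to 828 RPM in the negative and 3260 to 3600 RPM in the positive libraries. Of the 3 G1 markers CCND1, CDKN1A and CDKN1B, 0 were called between untreated fractions, with a median log2 difference of 0.16.

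In selumetinib-treated cells 6 of the 8 isotypes were higher in the CCNB1-positive fraction, 0 were lower, and TUBA1A and TUBB3 did not pass. Over all genes 13.8% were higher and 7.87% lower. The median log2 difference over the 8 isotypes was 1.73, against 0.02 over all genes. TUBA1B, at 19.3 and 18.3 RPKM in the negative and 153 and 164 RPKM in the positive libraries, was 8.67-fold higher (log2 difference 3.12, SE 0.16, adjusted p = 5.62e-09). TUBA1C was 6.37-fold, TUBB4B 5.76-fold and TUBB 4.23-fold higher. TUBA4A and TUBB2A were 2.59-fold and 2.25-fold higher. For each of the 6 both positive libraries lay above both negative ones, but the share of all genes separated in this way was not counted. TUBA1A had a log2 difference of 0.60 (interval -0.24 to 1.44, adjusted p = 0.281) and TUBB3 of -0.13 (interval -0.71 to 0.45, adjusted p = 0.751). The 6 G2/M markers were also all higher here, and summed to 84.3 and 115 RPM in the negative and 2540 and 2700 RPM in the positive libraries. The G1 markers did not go the other way: 2 of the 3 were called higher in treated CCNB1-positive cells and 0 lower, with a median log2 difference of 0.90.

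The last question was whether the response to selumetinib differed between fractions, tested as the interaction term of the same model. The response was less negative in CCNB1-positive cells for 5 of the 8 isotypes, TUBA1B, TUBA1C, TUBA4A, TUBB and TUBB4B, and more negative for 0. Over all genes 4.99% had a more positive and 0.345% a more negative response in CCNB1-positive cells. TUBA1B differed most, by 2.87 on the log2 scale (SE 0.23, adjusted p = 4.57e-06), a larger value than that of 99.6% of the genes tested. TUBB4B differed by 1.65 (SE 0.24, adjusted p = 0.000442), TUBB by 1.56 (SE 0.28, adjusted p = 0.00316), TUBA1C by 1.46 (SE 0.21, adjusted p = 0.000458) and TUBA4A by 1.14 (SE 0.22, adjusted p = 0.00496). TUBB2A differed by 0.62 (interval -0.08 to 1.32), TUBB3 by 0.02 (interval -0.79 to 0.84) and TUBA1A by -0.52 (interval -1.71 to 0.66), and these 3 did not pass (adjusted p = 0.302, 0.981 and 0.629). The 6 G2/M markers all had a positive interaction as well, with a median of 2.399. Of the 3 G1 markers 0 had a called interaction, and their median was 0.63. These comparisons share libraries and are not independent of each other.

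The make-up of the tubulin pool was described as the share of each isotype in the summed RPKM of its class, with merged exon lengths and no test. TUBA1B made up 63.1% and 67.1% of α-tubulin RPKM in untreated CCNB1-negative libraries and 45.1% and 45.4% in treated CCNB1-negative libraries. TUBA1C went the other way, from 24.6% and 20.3% to 42.0% and 40.9%. After treatment TUBA1B and TUBA1C averaged 18.8 and 17.2 RPKM in that fraction. With canonical transcript lengths they averaged 41.3 and 27.2 RPKM, and as shares of reads not divided by length TUBA1C came first, with 46.7% against 40.9%, so their order after treatment depends on the length. The loss of share by TUBA1B and the gain by TUBA1C were found with each length. Reads of both genes are open to misassignment, since 58.6% of the windows of TUBA1B and 26.4% of those of TUBA1C occur in another isotype.

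In CCNB1-positive cells TUBA1B held 52.0% and 55.04% of α-tubulin untreated and 56.1% and 57.7% treated, and TUBA1C 37.8% and 34.3% against 39.4% and 37.2%. TUBA4A lost share here, with 9.77% and 9.90% untreated and 4.17% and 4.97% treated, and the minor isotype TUBA1A had 0.363% and 0.767% untreated and 0.341% and 0.182% treated. In CCNB1-negative cells TUBA4A kept 11.9% and 12.2% untreated against 11.8% and 12.5% treated, a difference of 0.10 percentage points with an SD of 0.51. TUBA1A stayed at or under 1.18% in every library.

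TUBB4B and TUBB made up nearly all of the β-tubulin RPKM in each library. TUBB4B held 61.7% and 61.3% in untreated CCNB1-negative, 67.6% and 66.8% in untreated CCNB1-positive, 62.3% and 67.4% in treated CCNB1-negative and 72.1% and 73.0% in treated CCNB1-positive libraries. TUBB held 37.9% and 38.1%, 32.0% and 32.8%, 35.2% and 29.7%, and 27.0% and 26.2% in the same order. The positive libraries thus held more TUBB4B and less TUBB than the negative libraries in untreated cells and in treated cells. TUBB3 made up 0.115% and 0.0990% of β-tubulin in untreated CCNB1-negative and 1.05% and 0.918% in treated CCNB1-negative libraries, and TUBB2A 0.332% and 0.497% against 1.24% and 1.77%. With canonical transcript lengths the TUBB3 shares were larger, 0.350% and 0.301% untreated and 3.14% and 2.78% treated.

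**Figure D3:**
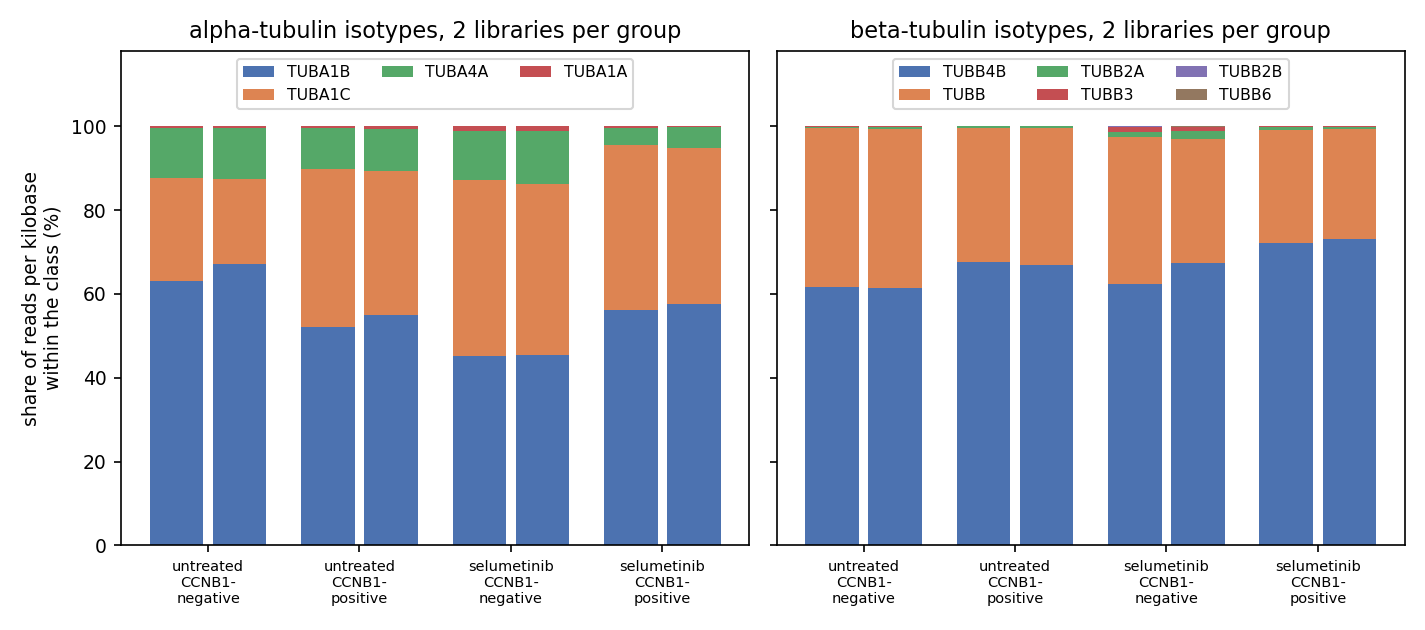
Share of each isotype in the summed reads per kilobase of its class (%), α-tubulin on the left and β-tubulin on the right, 1 bar per library and 2 libraries per group. TUBA1B falls from 63.1% and 67.1% to 45.1% and 45.4% between untreated and treated CCNB1-negative libraries, and TUBB4B reaches 72.1% and 73.0% in treated CCNB1-positive libraries.

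Genes whose deposited log2 values followed a member most closely over the 8 libraries are given, leaving out isotypes and genes named by clone identifiers. They are a description, since the 8 points share 4 groups. For TUBA1B they were CENPN, a centromere protein, RNASEH2A, a subunit of RNase H2, and THSD8, with Pearson r of 0.999 for the first and 0.9986 for the last. For TUBB4B they were CCNA2 (cyclin A2), UBE2S, a ubiquitin-conjugating enzyme of the anaphase-promoting complex, and GOT1, an aspartate aminotransferase, with r from 0.9973 to 0.998. For TUBB3 they were LGALS9 (galectin-9), KRT19 (keratin 19) and RIPK4, with r of 0.9953, 0.9857 and 0.9832. Among the isotypes themselves r ranged from 0.955 to 0.996 between TUBA1B, TUBA1C, TUBB and TUBB4B, and TUBB3 was negatively correlated with each of the other 7, with r between -0.848 and -0.469.

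The genes that fold tubulin were lower too. Of 15 genes of the chaperonin and prefoldin list, 14 fell in each of the 2 fractions and 0 rose in either, with medians of -2.16 and -1.61 on the log2 scale. Of all genes tested 35.8% fell in the negative and 27.3% in the positive fraction. The largest falls in CCNB1-negative cells were those of TCP1 and CCT2, subunits of the CCT ring, with log2 differences of -2.74 (SE 0.17, adjusted p = 1.36e-08) and -2.73 (SE 0.19, adjusted p = 4.04e-08), and in CCNB1-positive cells they stood at -1.91 and -1.96. The differences nearest to 0 were those of the prefoldin subunits PFDN1 (-0.80) and PFDN5 (-0.20, interval -0.54 to 0.14, not called). Between fractions 0 of the 15 were called in untreated cells, and 10 were higher in treated CCNB1-positive cells, as were 13.8% of all genes. The interaction was called for 0 of the 15, against 4.99% of all genes with a positive one. Its median was still 0.60 over the list and 0.11 over all genes. TCP1 stood at 0.83 (interval 0.31 to 1.35, limma adjusted p = 0.0668), so equal responses in the 2 fractions were not shown.

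Of 9 tested genes for tubulin cofactors and autoregulation, 6 fell and 2 rose in CCNB1-negative cells, and 2 fell and 2 rose in CCNB1-positive cells. Of all genes tested 35.8% fell and 38.2% rose in the negative and 27.3% and 38% in the positive fraction. TBCE, which has 2 entries, was left out of these counts. In CCNB1-negative cells 1 entry had log2 values of 9.97 and 10.14 untreated and 9.85 and 10.12 treated. The other had 10.83 and 11.015 untreated and 10.83 and 10.94 treated. TBCA and TBCB, which handle β- and α-tubulin after folding, had log2 differences of -0.84 (SE 0.18) and -0.79 (SE 0.15) in CCNB1-negative cells. Both risers in CCNB1-negative cells also rose in CCNB1-positive cells: SCAPER, which links TTC5 to the mRNA decay machinery, by 1.89 and 1.67, and TBCEL, a relative of a tubulin cofactor, by 1.31 and 1.37. TTC5, which recognises nascent tubulin in autoregulation, had a log2 difference of -0.11 in CCNB1-negative (interval -0.60 to 0.38, adjusted p = 0.672), against -0.80 in CCNB1-positive cells (SE 0.23, adjusted p = 0.00666). Its responses did not pass the test of their difference (-0.69, interval -1.38 to -0.01, adjusted p = 0.245). Between fractions 0 of the 9 were called in untreated cells, 3 were higher in treated CCNB1-positive cells, and 0 had a called interaction. Of all genes 13.8% were higher in treated CCNB1-positive cells and 4.99% had a positive interaction.

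Among the other tubulins 5 of 12 were tested. TUBG1, the γ-tubulin that nucleates microtubules, moved in the direction of the abundant isotypes, with a log2 response of -2.71 (SE 0.15, adjusted p = 5.57e-09) in CCNB1-negative and -1.48 (SE 0.15, adjusted p = 2.57e-06) in CCNB1-positive cells and a difference of 1.23 between them (SE 0.21, adjusted p = 0.00241). TUBG2, the second γ-tubulin, rose by 1.29 and 1.15. TUBA8, an α-tubulin, stood at 0.89 and 0.63 and TUBE1 (ε-tubulin) at -0.18 and -0.34, none of them called. In all, 2 of the 5 rose and 1 fell in CCNB1-negative cells, and 1 rose and 1 fell in CCNB1-positive cells. Of all genes tested 38.2% rose and 35.8% fell in the negative and 38% and 27.3% in the positive fraction. Between fractions 0 of the 5 were called in untreated cells, 1 was higher in treated CCNB1-positive cells and 1 had a called positive interaction. These shares over all genes were 13.8% for the treated fractions and 4.99% for the interaction.

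The 13 genes of the γ-tubulin complex list, which nucleates and anchors microtubules, held genes that moved either way. In CCNB1-negative cells 8 fell and 3 rose, where 35.8% of all genes fell and 38.2% rose. In CCNB1-positive cells 3 fell and 3 rose, where 27.3% of all genes fell and 38% rose. MZT1, a small subunit, and NEDD1, which brings the complex to the spindle, had the largest falls in CCNB1-negative cells, -2.10 (SE 0.16) and -1.25 (SE 0.16), and stood at -0.85 and -0.36 in CCNB1-positive cells, the second not called. NME7, another component, and AKAP9, a centrosome and Golgi scaffold, rose by 2.07 and 1.75 in CCNB1-negative and by 1.502 and 1.477 in CCNB1-positive cells. Between fractions 2 of the 13 were higher in untreated CCNB1-positive cells, 7 were higher and 1 lower in treated CCNB1-positive cells, and 3 had a called positive interaction. In the same order the shares over all genes were 1.36%, 13.8%, 7.87% and 4.99%.

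Of 38 tested microtubule regulators 20 fell and 13 rose in CCNB1-negative cells, and 12 fell and 9 rose in CCNB1-positive cells. Of all genes tested 35.8% fell and 38.2% rose in CCNB1-negative cells, and 27.3% fell and 38% rose in CCNB1-positive cells. The falls in CCNB1-positive cells and the rises in CCNB1-negative cells lay near these shares. The spindle factors TPX2 and PRC1 had the largest falls in CCNB1-negative cells, with log2 differences of -3.71 (SE 0.17, adjusted p = 1.31e-09) and -3.29 (SE 0.15, adjusted p = 1.34e-09), and -1.07 and -0.86 in CCNB1-positive cells. MAPT, which encodes tau, and CLIP2, a linker at growing microtubule ends, had the largest rises in CCNB1-negative cells, 3.07 and 2.88, and rose by 3.23 and 2.20 in CCNB1-positive cells. STMN1, stathmin, which binds free tubulin dimers, fell by 1.26 in CCNB1-negative cells (SE 0.21, adjusted p = 9.68e-05), stood at 0.25 in CCNB1-positive cells (adjusted p = 0.315), and its responses differed by 1.51 (SE 0.30, adjusted p = 0.00686). Between fractions 6 of the 38 were higher in untreated CCNB1-positive cells, 16 were higher and 3 lower in treated CCNB1-positive cells, and 11 had a called positive interaction. In the same order the shares over all genes were 1.36%, 13.8%, 7.87% and 4.99%.

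**Figure D4:**
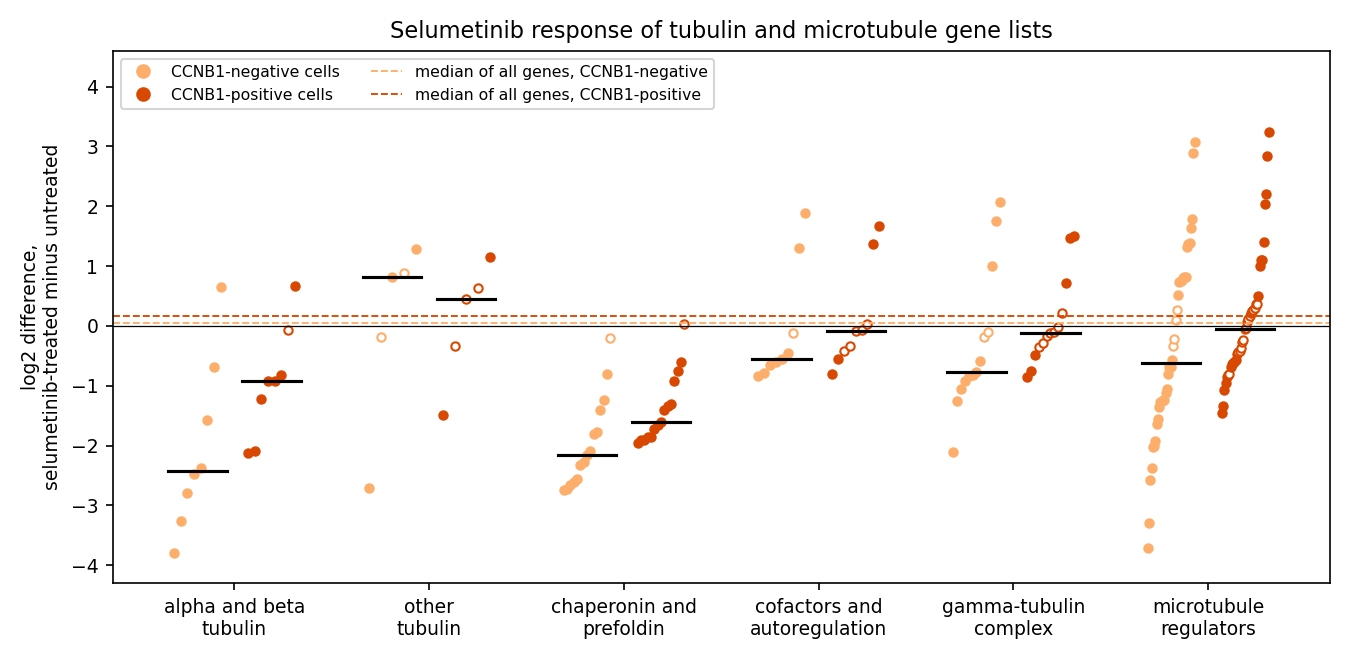
Log2 difference of treated minus untreated cells for each tested gene of 6 lists, CCNB1-negative cells on the left and CCNB1-positive cells on the right of each pair; filled points passed an adjusted p under 0.05, bars are list medians and dashed lines are the medians of all genes (0.05 and 0.17). The α- and β-tubulin and the chaperonin and prefoldin lists have medians of -2.43 and -2.16 in CCNB1-negative cells, and those of the other 4 lists lie between -0.78 and 0.83.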

How the data were processed

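Poly(A) mRNA of sorted HT29 cells was sequenced in 8 libraries, 2 in each of 4 groups. The authors trimmed reads (Trim Galore 0.5.0), mapped them to GRCh38 (HISAT2 2.1.0) and quantified genes in SeqMonk 1.47.0, and they deposited log2 values of reads per gene, normalized to the total read count. The annotation release, strand setting and treatment of reads that map to several places are not given in the sources used here. Libraries were brought to the size of the deepest, and a gene that drew no read was entered as 0.9 reads before the log, so whole reads could be recovered for 100% of genes with reads. Recovered reads on genes set the depth, 12696860 to 23916160 per library, and as they carry no molecular identifiers they cover counting error only. Of the identifiers 99.31% were found in GENCODE release 44, whose merged exon lengths gave RPKM, with canonical transcript lengths as an alternative.

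Groups follow the sample descriptions, which every title contradicts. Labels name RPMI-1640 as the medium, the methods another. Replicates differed by more than sampling noise (chi-square per gene 15.6 to 30.2). All 8 value columns were used and 0 set aside. Genes averaging 1 RPM or more (log2 value 4.58) were tested with limma 3.58.1 (R 4.3.3) with a mean-variance trend, 1 coefficient per group and Benjamini-Hochberg adjustment over all 14219 genes; the threshold was 0.05. The authors' own test was a count model; limma was used here because the deposited values are log2, and limma-voom on recovered reads was an alternative. The steps were tested on simulated data. Other steps used Python 3.11.15, pandas 2.3.3, numpy 2.4.6, Biopython 1.88 and matplotlib 3.10.9.

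The isotypes, lists, tests and naming rule were chosen with earlier results of these data known. Named are all 10 isotypes, TUBG1, TTC5 and STMN1. In each other list the 2 genes with the highest and the 2 with the lowest log2 response in CCNB1-negative cells are named. So are the 3 genes most correlated with TUBA1B, TUBB4B and TUBB3, a choice that left out isotypes and genes named by clone identifiers. Alternatives were a threshold of 0.01, no filter and a 10 RPM filter, quantile normalization, scaling to nuclear genes without MALAT1, a pseudocount of 0.1 RPM, limma-voom on recovered reads, replicate blocks, only the groups compared, and leaving out each library. Replicate numbers come from the labels. Deviations from group means correlated at 0.352 and 0.428 between same-numbered fractions of 1 treatment and between -0.0875 and 0.0821 otherwise. The numbers were therefore not taken to pair samples across treatments. Within a treatment the main fit left the fractions unpaired too, and the replicate block by treatment paired them as an alternative.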

Additional observations from a re-analysis of the deposited data

Results flagged for a closer look

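The response to selumetinib differed between CCNB1-negative and CCNB1-positive cells for 5 isotypes by the interaction term of the limma model, given as the log2 response in CCNB1-positive minus that in CCNB1-negative cells. The difference was 2.87 for TUBA1B, 1.65 for TUBB4B, 1.56 for TUBB, 1.46 for TUBA1C and 1.14 for TUBA4A, and all 5 were lower after treatment in both fractions. Each was called under all 17 alternatives run for it, with values between 2.74 and 3.06 for TUBA1B and between 0.99 and 1.29 for TUBA4A. The G2/M markers moved in the same comparison, and their part in these differences was not tested. Groups of 2 libraries allowed no test for single outlying libraries.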

How the results depend on the processing

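Of 28 calls of isotypes, 21 were made under every alternative run for them and 7 were lost under some; the 10 RPM filter leaves TUBA1A, TUBB2A and TUBB3 untested. The 7 were both TUBB3 responses, TUBB2A in the negative fraction, TUBA1B, TUBA1C and TUBB4B in CCNB1-positive cells, and TUBB4B between untreated fractions. The number higher after treatment, 1 in each fraction, was 0 in each with a threshold of 0.01, with a 10 RPM filter and with quantile normalization, where also 3 instead of 6 were lower in CCNB1-positive cells. Isotypes lower in CCNB1-negative cells were 6 instead of 7 with a threshold of 0.01, with scaling to nuclear genes and with limma-voom, and 5 with the 10 RPM filter, which also left 5 lower in CCNB1-positive cells and 5 higher in treated CCNB1-positive cells. With no filter 1 isotype was higher after treatment in each fraction, TUBB2B in place of TUBB3. Without 1 library at a time, 6 to 7 were lower in CCNB1-negative cells, isotypes higher after treatment numbered 0 to 1 in each fraction and those higher in untreated CCNB1-positive cells 1 to 3. With the replicate number as a block each count was unchanged, 7 lower and 1 higher in CCNB1-negative cells, 6 and 1 in the positive fraction, 2 and 6 higher in the untreated and treated positive fraction and 5 with an interaction; with a replicate block by treatment 4 isotypes, TUBA1A and TUBB added, were higher in untreated CCNB1-positive cells and no other count moved. Over all genes that block called 675 higher and 1248 lower between untreated fractions, against 194 and 214 without it, 3845 and 2826 against 1958 and 1119 between treated fractions, and 2739 and 1111 against 709 and 49 for the interaction.

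The sign turned for small, uncalled differences and for TUBB3. With quantile normalization TUBB3 stood at -0.19 in CCNB1-positive cells, 0.018 between untreated fractions and -0.24 for the interaction. The TUBB3 interaction was -0.0067 with scaling to nuclear genes and -0.013 with the pseudocount, and TUBB2A in CCNB1-positive cells was 0.085 with scaling to nuclear genes, 0.042 with the pseudocount and 0.057 with limma-voom. Without 1 library at a time the interaction ranged from -1.13 to 0.0825 for TUBA1A and from -0.25 to 0.30 for TUBB3, the TUBB2A response in CCNB1-positive cells from -0.19 to 0.066, and the TUBB3 fraction difference in treated cells from -0.40 to 0.14. The cause of these changes was not tested. Scaling to nuclear genes moved the median of all genes by 0.18 and 0.15 in the 2 responses, and quantile normalization by -0.13 and -0.24. Taken against the median of all genes, TUBB2A in CCNB1-positive cells stood at -0.23 both in the main fit and with scaling to nuclear genes. With quantile normalization 47.5% of the genes called in CCNB1-positive cells were higher, against 58.1%, and the shares were 64.8% against 47.5% between untreated fractions, 47.9% against 63.6% between treated fractions and 70.9% against 93.5% for the interaction.

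Shares of α- and β-tubulin were also taken from reads not divided by length, with all annotated α or β genes, and, chosen after seeing the data, with canonical transcript lengths. The treated minus untreated difference of TUBA4A in CCNB1-negative cells, 0.10 percentage points, was -0.41 without length and 0.76 with canonical length; in CCNB1-positive cells those of TUBB and TUBB4B, -5.81 and 5.35, were -7.08 and 6.32 without length.

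With 2 libraries per group the spread of a gene rests mostly on that of all genes, and 85 to 180 reads (TUBB3) or fewer (TUBB2B, TUBB6) limit what can be seen.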
